A study of Mus musculus with 2 samples.

Results

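The let-7 microRNAs a, c and f are each encoded at 2 places in the mouse genome, and these 6 genes were examined together with Mir98, a let-7 family gene that lies beside one of them. The 7 genes (Mirlet7a-1, Mirlet7a-2, Mirlet7c-1, Mirlet7c-2, Mirlet7f-1, Mirlet7f-2 and Mir98) were selected by their gene names and make up 7 of the 2202 microRNA genes counted. The tissue was left cerebral cortex from female mice of the strain B6CASTF1/J, an F1 cross, at 25 days of age, and RNA below 30 nt was sequenced. The labels give 1 group of 2 biological replicates, with no treatment and no second genotype. They number the animals separately but attach 1 donor record to both libraries, so spread between the replicates may be partly technical. No condition was set against another, and the measurements describe the level of each gene, the balance between loci and the match of the 2 libraries.

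The let-7 microRNAs are a conserved family, first known from the timing of development in Caenorhabditis elegans, that becomes abundant as tissues such as the brain mature. Each gene is transcribed as part of a longer RNA, from which Drosha cuts a hairpin and Dicer a short duplex, and 1 arm of the duplex guides Argonaute to messages that match its seed. LIN28 proteins block this maturation in early and undifferentiated cells, and messages such as Hmga2 and Lin28 are classic let-7 targets.

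The mature 5p sequences are shown because those of let-7a, let-7c and let-7f each occur in 2 hairpins. RefSeq sequences on GRCm38.p6 matched 7 of 7 hairpins. The seed, bases 2 to 8, is in capitals.
mmu-let-7a-5p: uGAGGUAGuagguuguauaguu
mmu-let-7c-5p: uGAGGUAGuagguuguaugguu
mmu-let-7f-5p: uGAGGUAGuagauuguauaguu
mmu-miR-98-5p: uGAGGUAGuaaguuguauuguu

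The seed was the same in all 4. It was also shared with the other let-7 genes, with Mir1961, which had 0 counts in both libraries, and with Mir7k, which had 2 counts in replicate 1 and 0 in replicate 2. Counting positions from 1 at the 5′ end and writing the let-7a base first, let-7c differed from let-7a by A19G, let-7f by G12A, and miR-98 by G11A and A19U. The let-7 genes with a single locus differed from let-7a by A17G and A19G in let-7b, U1A and U16C in let-7d, U9G in let-7e, and G12U and U18C in let-7g. Let-7i carried G12U, A17G, U18C and A19U.

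The hairpins are shown because a read inside the run that a pair shares cannot be placed at 1 locus. In the 6 hairpins of the pairs, capitals mark the run common to both loci from the start of the 5p arm, and in Mir98 they mark the 5p arm.
Mirlet7a-1 hairpin: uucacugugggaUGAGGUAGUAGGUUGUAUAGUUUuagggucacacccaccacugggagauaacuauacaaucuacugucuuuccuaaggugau
Mirlet7a-2 hairpin: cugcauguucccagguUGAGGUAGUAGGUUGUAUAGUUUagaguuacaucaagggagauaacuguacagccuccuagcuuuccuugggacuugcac
Mirlet7c-1 hairpin: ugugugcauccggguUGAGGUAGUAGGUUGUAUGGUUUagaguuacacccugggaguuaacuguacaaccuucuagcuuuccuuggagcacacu
Mirlet7c-2 hairpin: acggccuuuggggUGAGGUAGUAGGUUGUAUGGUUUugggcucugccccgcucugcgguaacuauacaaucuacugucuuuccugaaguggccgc
Mirlet7f-1 hairpin: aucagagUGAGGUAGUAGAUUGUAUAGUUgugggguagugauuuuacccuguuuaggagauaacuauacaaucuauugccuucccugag
Mirlet7f-2 hairpin: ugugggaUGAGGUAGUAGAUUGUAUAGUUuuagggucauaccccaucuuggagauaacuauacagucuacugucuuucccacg
Mir98 hairpin: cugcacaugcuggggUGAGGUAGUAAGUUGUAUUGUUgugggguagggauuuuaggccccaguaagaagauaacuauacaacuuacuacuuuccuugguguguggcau

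The common run was 23 nt for let-7a, 23 nt for let-7c and 22 nt for let-7f, so it ended at or 1 nt after the mature arm, and the first difference came at base 24, 24 and 23 of the run. Reads of the mature 5p arm therefore match both loci of a pair. The 3p arms, shown in lower case without capitals, tell most loci apart.
mmu-let-7a-1-3p: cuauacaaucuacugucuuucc
mmu-let-7a-2-3p: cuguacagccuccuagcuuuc
mmu-let-7c-1-3p: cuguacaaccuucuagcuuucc
mmu-let-7c-2-3p: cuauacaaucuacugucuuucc
mmu-let-7f-1-3p: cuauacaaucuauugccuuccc
mmu-let-7f-2-3p: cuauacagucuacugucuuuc
mmu-miR-98-3p: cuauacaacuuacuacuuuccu

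The 3p arms of Mirlet7a-1 and Mirlet7c-2 were identical and occurred in 2 hairpins, and each of the other 5 occurred in 1. Neither arm of Mir98 was found in any other of the 2202 counted hairpins. Over whole hairpins the closest pairs were not those with the same mature microRNA. Across 21 pairs of hairpins, identity in a global alignment was highest between Mirlet7a-1 and Mirlet7f-2 at 79.8% and between Mirlet7a-2 and Mirlet7c-1 at 78.1%. Pairs with 1 mature sequence were less alike, at 70.8% for let-7f, 68.6% for let-7a and 67.3% for let-7c.

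Stretches of exactly 22 nt that also occur in another hairpin made up 9.59% of the windows of Mirlet7a-1 and 9.46% of those of Mirlet7c-2. They made up 2 of 75 windows in Mirlet7a-2, 2 of 73 in Mirlet7c-1, 1 of 68 in Mirlet7f-1 and 1 of 62 in Mirlet7f-2, and none of 87 in Mir98. At 18 nt the shares were 27.3% for Mirlet7a-1 and 21.8% for Mirlet7c-2, against 11.1% to 12.1% in the other 4 two-locus genes. From 24 to 26 nt only Mirlet7a-1 and Mirlet7c-2 had such stretches, with each other, and from 27 nt none did.

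**Figure D1:**
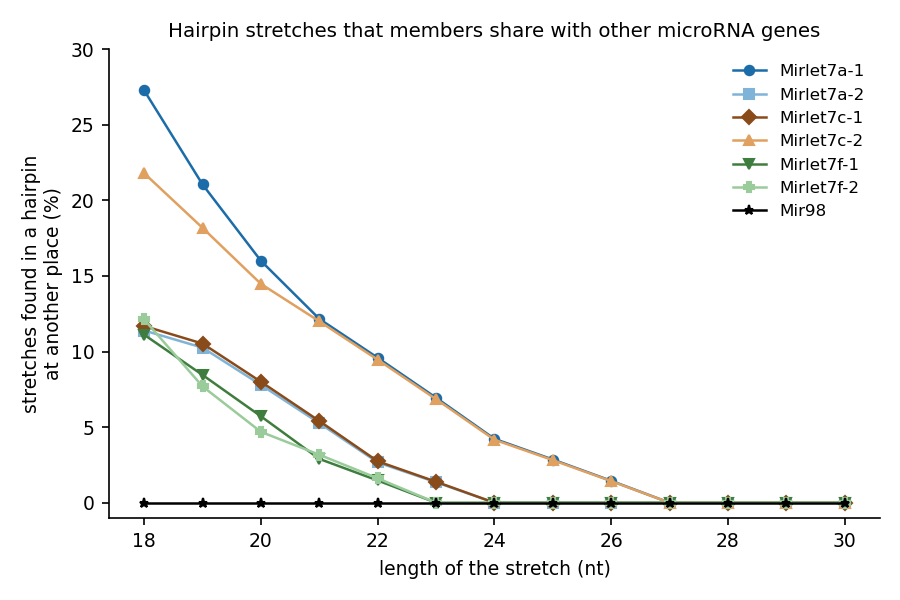
Share of the windows of each member's hairpin (y axis, percent) that also occur in another counted hairpin, by window length (x axis, nt), 1 line per member. Mirlet7a-1 and Mirlet7c-2 are highest at every length up to 26 nt, and Mir98 stays at 0 throughout.

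The genes lie on 5 chromosomes in mm10. Mirlet7a-1 (13: 48538179 to 48538272, minus strand) and Mirlet7f-1 (13: 48537829 to 48537917, minus strand) lie in an exon of the long noncoding RNA 6720427I07Rik, 261 nt apart, with Mirlet7d after them. Mirlet7f-1 is also overlapped on the other strand by the microRNA gene Gm24111, and its count was 0 in both libraries in the column for either strand. Mirlet7f-2 (X: 151912346 to 151912428) and Mir98 (X: 151913214 to 151913321) lie 785 nt apart in an intron of Huwe1, which encodes a ubiquitin ligase. Mirlet7c-2 (15: 85706603 to 85706697) lies in an exon of the noncoding RNA Lncppara, 621 nt from Mirlet7b. Mirlet7c-1 (16: 77599657 to 77599750) lies in an intron of Mir99ahg, 656 nt from Mir99a, and in an intron of Gm11146 on the other strand. Mirlet7a-2 (9: 41536716 to 41536811) lies in introns of the noncoding genes 3110039I08Rik and Gm49317, 5211 nt from Mir100. Mirlet7f-2, Mir98, Mirlet7c-2, Mirlet7c-1 and Mirlet7a-2 are on the plus strand.

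The libraries held 8491339 reads in replicate 1 and 9289252 in replicate 2, and own-strand microRNA gene counts summed to 3017058 and 3209361. A further 40.3% and 39.0% of reads matched several loci, a class that the tables assign to no gene. How many of them came from let-7 hairpins cannot be told from the tables, so the counts of genes with shared arms are counts outside that class, and its part in the levels below was not tested. Levels are in CPM, the own-strand count of a gene scaled to a common library total, and 3 counts correspond to 0.994 and 0.935 CPM. Brain microRNA genes were present, with 12 of 16 listed brain markers detected (at least 10 counts in both libraries). The listed markers took 21.9% and 20.7% of counts. Most of that was Mir139, at 155820 and 141898 CPM, and the median of the 16 markers was 181 CPM. The Mir124a genes and Mir9-2, which have several loci, had at most 9 counts. Of the striated muscle markers, Mir206 had 27.2 and 34.3 CPM. The Mir1a and Mir133a genes, which have 2 loci each, were at 0. The part of reads matching several loci in these low counts was not tested, so the zeros do not show that muscle RNA was absent. Elsewhere, liver Mir122 had 46.7 and 51.1 CPM, red blood cell markers took 0.00510% and 0.00754% of counts, and oligodendrocyte markers took 0.366% and 0.563%.

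All 7 genes were detected, as were 17.9% of the 2202 counted genes. In bulk tissue, fewer cells of a type and less RNA per cell cannot be told apart. Mir98 was highest, with 3691 CPM in replicate 1 and 3193 CPM in replicate 2, from 11135 and 10249 counts. Mirlet7f-2, its neighbour on X, had 1912 and 2001 CPM. Mirlet7c-2 had 1852 and 1775 CPM. These 3 genes supplied 86.3% and 86.5% of the counts of the 7, and the pair on X alone 64.9% and 64.5%.

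The other 4 genes were lower. Mirlet7c-1 had 482 and 494 CPM. Mirlet7a-1 had 403 and 314 CPM. The lowest pair were Mirlet7f-1, with 165 and 146 CPM from 498 and 470 counts, and Mirlet7a-2, with 133 and 129 CPM from 402 and 415 counts. Each interval of counting error was narrow beside the gaps between most genes, for example 3622 to 3760 CPM (exact Poisson 95%) for Mir98 in replicate 1 and 121 to 147 CPM for Mirlet7a-2. In replicate 1 the intervals of Mirlet7f-2 (1863 to 1962 CPM) and Mirlet7c-2 (1804 to 1901 CPM) overlapped. In replicate 2 those of Mirlet7f-1 (134 to 160 CPM) and Mirlet7a-2 (117 to 142 CPM) did.

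As means over both replicates the order was Mir98 at 3442 ± 352 CPM, Mirlet7f-2 at 1956 ± 63.1, Mirlet7c-2 at 1814 ± 54.2, Mirlet7c-1 at 488 ± 7.99, Mirlet7a-1 at 359 ± 62.9, Mirlet7f-1 at 156 ± 13.2 and Mirlet7a-2 at 131 ± 2.78 CPM (SD, n = 2). The highest was 26.2-fold above the lowest, and the order was the same in both libraries and per 100 nt of hairpin. The replicate ranges of neighbours in the order did not overlap in 6 of 6 cases. The gap between Mirlet7f-2 and Mirlet7c-2, 59.7 CPM, was smaller than the larger SD of the pair, 63.1 CPM, and that between Mirlet7f-1 and Mirlet7a-2, 13.2 CPM, was about equal to it. With 2 replicates a side the smallest exact two-sided permutation p is 0.333, so no pair of genes could be separated by such a test. Both genes of a pair come from the same 2 libraries, a pairing that this p does not use.

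**Figure D2:**
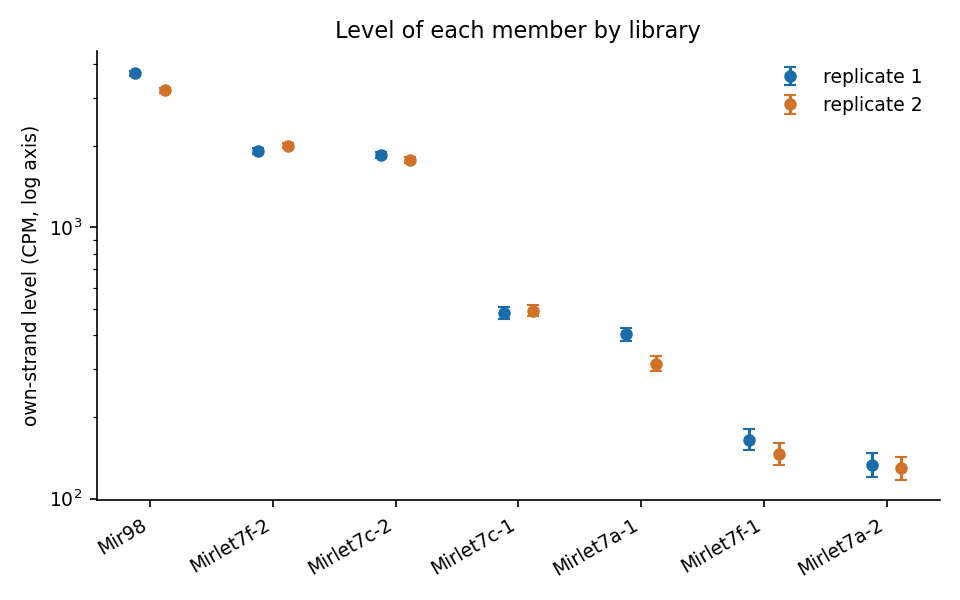
Level of each member (y axis, CPM on a log scale) in both replicates, with exact Poisson 95% intervals of counting error. The levels run from 131 CPM on average in Mirlet7a-2 to 3442 CPM in Mir98, and the 2 points of a gene lie close together beside the 26.2-fold range.

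In the counts, which leave out reads matching several loci, the 2 loci of each pair were unequal. The higher locus was not the same one in every pair. Every annotated arm of Mirlet7a-1 and Mirlet7c-2 also occurs in another hairpin. Mirlet7a-2, Mirlet7c-1, Mirlet7f-1 and Mirlet7f-2 each have a 3p arm that occurs in 1 hairpin. The part of this in the shares was not tested. Mirlet7f-2 took 92.1% of the let-7f counts in replicate 1 (exact Clopper-Pearson 95% interval 91.4 to 92.7) and 93.2% in replicate 2 (92.6 to 93.8), which is 11.6 and 13.7 times the count of Mirlet7f-1. Mirlet7c-2 took 79.3% (78.4 to 80.3) and 78.2% (77.3 to 79.2) of the let-7c counts, 3.84 and 3.60 times Mirlet7c-1. In let-7a the second locus was the lower one, and Mirlet7a-2 took 24.8% (22.7 to 27.0) and 29.1% (26.8 to 31.6). In all 3 pairs the higher locus was the same in both libraries, and the 95% intervals of the replicates overlapped. As means the shares of the second locus were 92.6% ± 0.798 for let-7f, 78.8% ± 0.773 for let-7c and 27.0% ± 3.05 for let-7a (SD, n = 2).

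**Figure D3:**
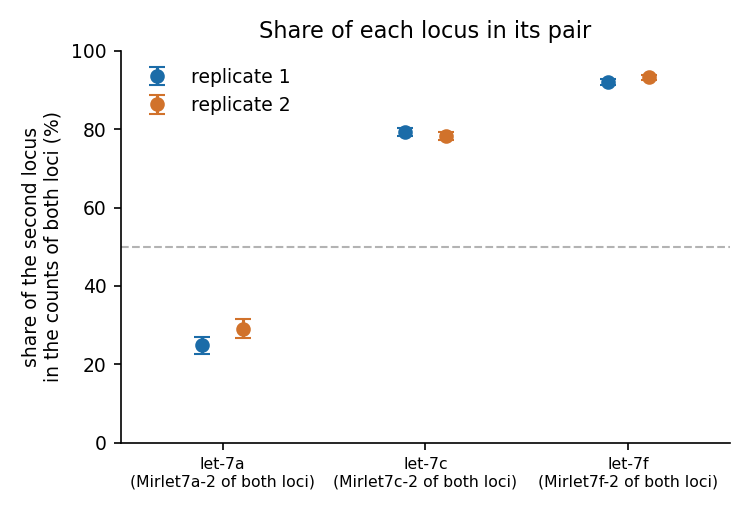
Share of the second locus in the counts of its pair (y axis, percent) for let-7a, let-7c and let-7f in both replicates, with exact 95% intervals and a dashed line at equal shares. The second locus holds most of the let-7c and let-7f counts and 27.0% of the let-7a counts on average. Reads matching several loci are not in these counts.

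Summed over 2 loci, the let-7c genes reached 2334 and 2269 CPM, the let-7f genes 2077 and 2147 CPM, and the let-7a genes 537 and 444 CPM. These sums leave out reads matching several loci, so they are not levels of the mature microRNAs. The let-7a sum was lowest in both libraries.

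Neighbours in a cluster differed widely in counts. In the chromosome 13 cluster, Mirlet7a-1 held 2.02% of the Mirlet7d count in replicate 1 and 0.989% in replicate 2, and Mirlet7f-1 held 0.825% and 0.461%, against 19997 and 31795 CPM for Mirlet7d itself, a let-7 gene with a single locus. Mirlet7c-2 held 2.53% and 2.40% of the count of its neighbour Mirlet7b. Mir98 was above its neighbour, at 193% and 160% of Mirlet7f-2. Mirlet7d, Mirlet7b and Mir98, the higher genes here, have no annotated arm in another hairpin, while their lower neighbours do. Whether this bears on the ratios was not tested.

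Mirlet7c-1 and Mirlet7a-2 sit in clusters of like make-up, between a gene of the Mir99 and Mir100 family and a Mir125b gene, and the counting intervals of their ratios to that gene overlapped in each library. Mirlet7c-1 held 5.31% and 3.95% of the Mir99a count, and Mirlet7a-2 held 5.19% and 3.80% of the Mir100 count. Against the Mir125b gene the clusters differed, since Mirlet7c-1 was at 192% and 170% of Mir125b-2 and Mirlet7a-2 at 13.5% and 11.7% of Mir125b-1. Mir125b-1 and Mir125b-2 also share a mature arm with each other, so the class of reads matching several loci bears on them too. In the third such cluster, Mirlet7e, which has a single locus, stood at 284% and 352% of Mir99b. Against Mir125a it stood at 334% in replicate 1 and 152% in replicate 2. Per 100 nt of hairpin the mean ratios were 1.65% for Mirlet7a-1 and 0.744% for Mirlet7f-1 over Mirlet7d, 2.21% for Mirlet7c-2 over Mirlet7b, 3.20% for Mirlet7c-1 over Mir99a and 3.74% for Mirlet7a-2 over Mir100. On that scale Mir98 was at 136% of Mirlet7f-2 and Mirlet7c-1 at 137% of Mir125b-2, so each direction was the same as in counts.

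**Figure D4:**
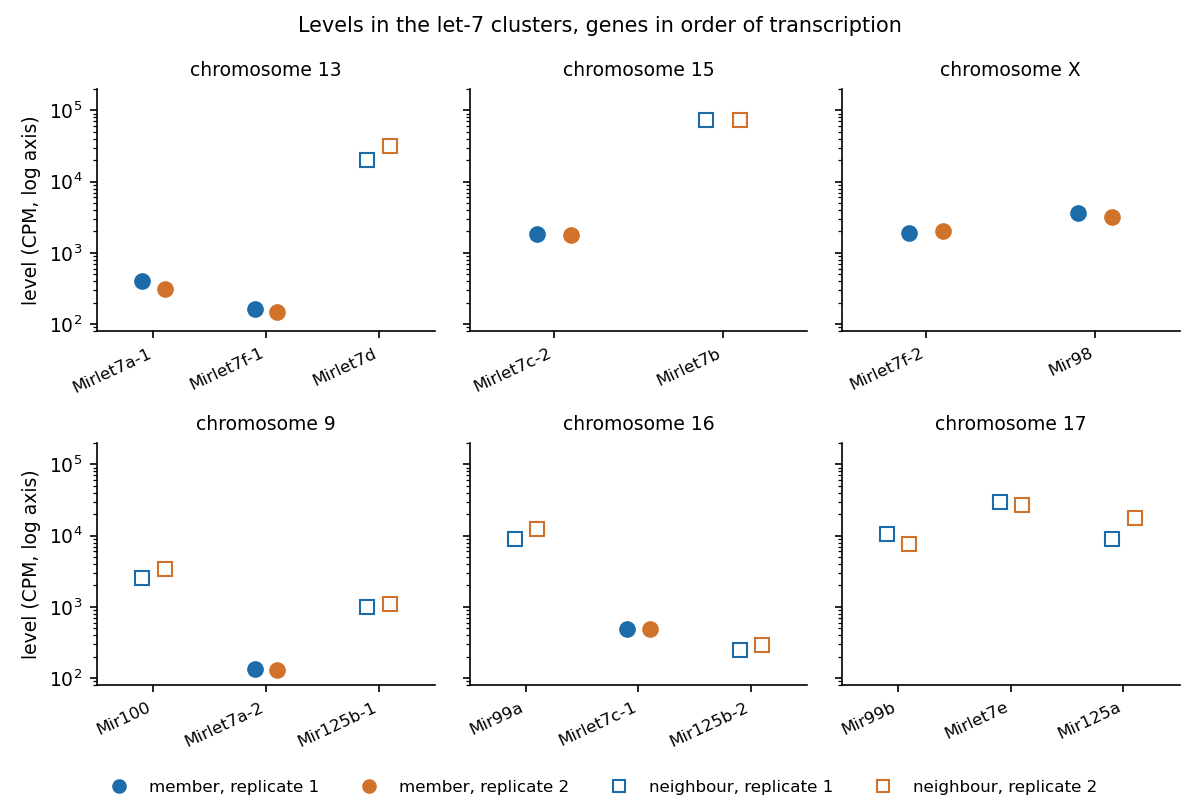
Levels of the genes of each let-7 cluster (y axis, CPM on a log scale) in order of transcription, with both replicates drawn, members as filled circles and neighbours as open squares. The members on chromosomes 13, 15, 16 and 9 lie far below Mirlet7d, Mirlet7b, Mir99a and Mir100, and Mir98 lies above Mirlet7f-2.

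Beside the rest of the family the 7 genes were a small part of let-7 counts. They supplied 26063 and 25847 counts, which is 3.37% and 3.25% of the counts of all 12 let-7 family genes and 0.864% and 0.805% of all microRNA gene counts. The 5 single-locus let-7 genes supplied 24.7% and 24.0% of all counts. The median level was 488 CPM over the 7 genes and 50485 CPM over the single-locus genes, whose means ran from 25896 to 73582 CPM, so the highest of the 7 lay below the lowest single-locus gene. An annotated mature arm occurred in another hairpin for 6 of the 7 genes, for 0 of the 5 single-locus genes and for each of the 13 other brain genes with 2 or 3 loci that matched a RefSeq arm. Mir98, with no such arm, was below every single-locus let-7 gene. Whether shared arms bear on these levels was not tested.

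The other brain genes with several loci did not share 1 level. Mir128-1 had 11855 and 14517 CPM and Mir128-2 2854 and 3518 CPM. Mir138-1 had 5132 and 5113 CPM and Mir138-2 2740 and 2464 CPM. Lower down, Mir9-1 had 13.3 and 6.85 CPM, and Mir218-1 had 17.2 and 19.6 CPM. The lowest were the Mir124a genes, Mir9-2 and Mir219a-1, with means from 0.467 to 3.15 CPM. Mir219a-2, the other locus of Mir219a-1, had a mean of 2814 CPM. The median of the 16 genes was 67.2 CPM with 11 of 16 detected. The 7 let-7 genes lay inside the range of the 16, 0.467 to 13186 CPM.

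The libraries were compared after TMM scaling, which shifts each log2 ratio by 0.23 from its value with library totals. The ratio is replicate 1 over replicate 2. All 7 members differed between the libraries by an exact binomial test with Benjamini-Hochberg adjustment over 496 genes, against a background of 56.5% of tested genes called. All 7 calls were higher in replicate 1, as were 30.6% of tested genes, while 25.8% were higher in replicate 2; Mirlet7c-1 and Mirlet7f-2 turned with library totals. This direction depends on the scaling. Over all tested genes, 152 were called higher in replicate 1 and 128 in replicate 2 after TMM scaling, against 102 and 180 with library totals. Among the 7 genes, 3 were then called higher in replicate 1 (Mirlet7a-1, Mirlet7c-2 and Mir98), 1 was called higher in replicate 2 (Mirlet7f-2), and 3 were not called. Among the 200 tested genes with at least 100 CPM on average, a limit chosen after the values were seen, 90% were called and 53% were higher in replicate 1. No result about these genes is read from the count of calls or from its direction. The test compares 2 libraries and not 2 conditions.

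The ratios of the 7 genes ran from 1.12-fold to 1.50-fold after TMM scaling. Mirlet7a-1 had the largest, 1.50-fold (log2 0.59, 95% counting interval 0.47 to 0.71, adjusted p = 3.7e-21 by the exact binomial test), followed by Mir98 at 1.35-fold (log2 0.44, 0.40 to 0.48). Mirlet7f-1 had 1.32-fold, Mirlet7c-2 1.22-fold and Mirlet7a-2 1.21-fold, the last with an exact adjusted p of 0.015. With library totals, neither Mirlet7a-2 (exact adjusted p = 0.77) nor Mirlet7f-1 (0.11) was called, and in the either-strand column the exact adjusted p of Mirlet7a-2 was 0.053. Mirlet7c-1 and Mirlet7f-2, at 1.14-fold and 1.12-fold, were nearest to 1. After TMM scaling the median absolute log2 ratio was 0.29 over the 7 genes and 0.42 over the 231 tested genes with at least 50 CPM. A 2-fold ratio was passed by 0 of the 7 and 32 of the 231. A set of 7 genes is too small to read a difference from that share. With library totals the log2 ratios of the 7 genes ran from -0.066 to 0.36.

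**Figure D5:**
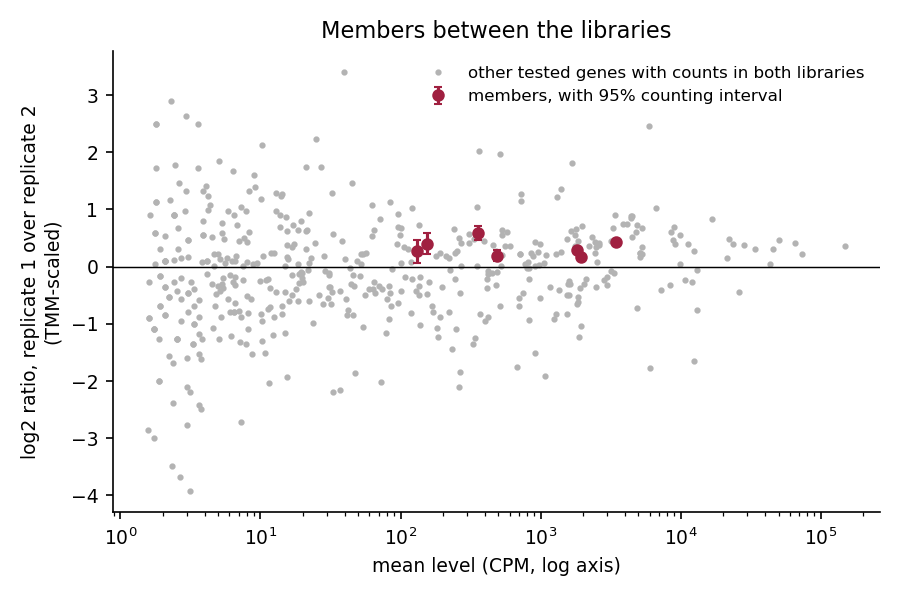
Log2 ratio of replicate 1 over replicate 2 after TMM scaling (y axis) against mean level (x axis, CPM on a log scale) for the tested genes, with the 7 members in red with 95% counting intervals. Genes at 0 in a library are not drawn. The members lie between 0.16 and 0.59, within the spread of the other genes, and Mirlet7c-1 and Mirlet7f-2 turn below 0 with library totals.

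Outside let-7, the gene nearest in level to each member was taken by Euclidean distance in log2(CPM + 1) over the 2 libraries, which is a description of 2 values per gene. Mir181b-2 lay nearest to Mir98 at a distance of 0.15, Mir431 to Mirlet7f-2 at 0.23 and Mir93 to Mirlet7c-2 at 0.072. Mir29c lay nearest to Mirlet7c-1 at 0.060, Mir421 to Mirlet7a-1 at 0.16, Mir30c-1 to Mirlet7f-1 at 0.024 and Mir218-2 to Mirlet7a-2 at 0.044. On the opposite strand no member had more than 2 counts in a library.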

How the data were processed

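Small RNA of 2 cortex libraries was analysed from the deposited tables of read counts per microRNA gene, made by the authors on mm10. Genes were named here by GENCODE M21, which holds every counted gene identifier. Which programs aligned and counted the reads is not given in the sources used here. Columns are unnamed. The roles of either strand, own strand and opposite strand were read from the values, and the own-strand column, 93.8% and 93.7% of both stranded columns, was used. Reads unmapped, at several loci, outside genes or ambiguous were left out of library sizes. Each gene's count covers the 2 arms together.

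CPM, shares, exact Poisson and Clopper-Pearson 95% intervals and exact binomial tests with Benjamini-Hochberg adjustment, called under 0.05, were computed with Python 3.11.15, numpy 2.4.6, pandas 2.3.3, scipy 1.17.1, R 4.3.3, edgeR 4.0.16 for TMM and DESeq2 1.42.0 for other size factors. Genes with at least 10 counts in total were tested. The test was checked on simulated counts whose spread was counting error alone. Before scaling, the 2 libraries differed by a chi-square of 318 per degree of freedom over 496 tested genes. The check therefore does not measure false calls in these libraries. PCR reads without molecular identifiers are not independent molecules, so the intervals and the 3-count floor describe counting error alone. Hairpins were aligned globally with a match score of 1 and a gap score of -1.

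Named beside the members were the other let-7 genes, cluster neighbours, other brain genes with several loci and the nearest gene by level. The members and lists were chosen with earlier results of these data known. Stretches were searched in the counted hairpins. A genome sequence was not used here.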

Additional observations from a re-analysis of the deposited data

How the results depend on the processing

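The alternatives were library totals, DESeq2 size factors, other count minimums, thinning to equal depth, the either-strand column, other denominators, hairpin length and leaving out each replicate. With library totals 4 of 7 members were called, beside 282 of 496 tested genes. Mirlet7a-2 (exact adjusted p = 0.77), Mirlet7c-1 (0.62, log2 ratio -0.033) and Mirlet7f-1 (0.11) were no longer called, and Mirlet7f-2 was called in the other direction (log2 ratio -0.066, exact adjusted p = 0.022). The scaling itself sets this change. In the either-strand column Mirlet7f-1 held 0 counts, where the opposite-strand gene Gm24111 overlaps it, so the Mirlet7f-2 share was 100%, and the 7 genes held 0.877% of all counts and 3.66% of let-7 counts. The exact adjusted p of Mirlet7a-2 was then 0.053, and 5 of the 6 members tested were called, beside 259 of 473 tested genes. Levels moved by more than 1 SD for 7 genes with all reads as the denominator, 5 per 100 nt of hairpin and 5 in the either-strand column, and for none with TMM or DESeq2 scaling. Own-strand counts were 35.5% and 34.5% of all reads, so that denominator lowers every level by construction. Hairpin length changes the unit. TMM and DESeq2 scaling raise the levels of 1 library and lower those of the other, so a mean moves little. These alternatives say little about stability. Leaving out 1 of 2 replicates moves a mean by less than 1 SD by construction, so it shows nothing about stability. Genes called ranged from 259 of 473 tested in the either-strand column to 283 of 496 with DESeq2 size factors. At a minimum of 1 count they were 273 of 742. All 7 genes were detected at minimums of 1 and 100 counts. Members with a shared stretch numbered 2 at 24, 25 and 26 nt and 0 from 27 to 30 nt, against 6 at 22 nt. The search of the whole genome was not run. There is 1 group, so no samples were paired. Ratios between genes were taken within each library, and no paired test was run.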
